A study of Mus musculus with 2 samples.

Results

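The kainate and delta glutamate receptor genes were described in total RNA from the left cerebral cortex of aged mice: the kainate receptor subunits Grik1 to Grik5, the delta receptor subunit Grid1, and the auxiliary proteins Neto1 and Neto2. The 8 genes were chosen by name, out of 55536 annotated genes, without use of their levels. The mice were females of the hybrid B6CASTF1/J, a cross of C57BL/6J with CAST/EiJ, and were 18 to 20 months old. The 2 libraries form 1 group, with 300 ng of starting RNA and added spike-ins for each, and no treatment, genotype or age was compared. They are called replicate 1 and replicate 2 here, after the biological replicate numbers of the labels. The labels name the same donor for both, so the use of separate animals is undocumented, and the spread between them may be technical. With a single group no test was made, and SDs below are over n = 2 libraries.

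Kainate receptors are ion channels opened by glutamate and built from subunits around a shared pore. The subunits of Grik1, Grik2 and Grik3 (GluK1, GluK2 and GluK3), called low-affinity after their binding of kainate, can form channels on their own. The high-affinity subunits of Grik4 and Grik5 (GluK4 and GluK5) reach the surface as working channels only together with a low-affinity partner. Neto1 and Neto2 are membrane proteins with CUB domains that bind kainate receptors and alter how they open and desensitise. Grid1 encodes GluD1, a related protein that is best known as a synaptic organiser: it binds secreted cerebellins, which in turn bind presynaptic neurexins.

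The kainate and delta subunits share a pore loop. The codon at its tip is shown here because in Grik1 and Grik2 it is the Q/R site. There the editing enzyme encoded by Adarb1 can change the coded glutamine to arginine and alter calcium passage. The coding sequence around that position was read from the GENCODE M21 transcripts of 6 genes, in each the complete coding model with the most counts. Each run is 45 bases long, 5′ to 3′ in the sense of the mRNA, with the codon in capitals.
Grik1: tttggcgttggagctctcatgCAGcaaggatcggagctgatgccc
Grik2: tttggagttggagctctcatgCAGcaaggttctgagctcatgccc
Grik3: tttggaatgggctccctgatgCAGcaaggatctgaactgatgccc
Grik4: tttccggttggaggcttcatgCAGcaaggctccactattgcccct
Grik5: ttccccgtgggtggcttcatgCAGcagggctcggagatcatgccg
Grid1: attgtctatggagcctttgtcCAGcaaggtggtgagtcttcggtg
In mm10 the Grik1 codon lies at chr16:87940542-87940544 on the minus strand and codes for residue 621. That of Grik2 lies at chr10:49244329-49244331 on the minus strand, also residue 621. For Grik3 it is chr4:125691207-125691209 on the plus strand, residue 623. The Grik4 codon is at chr9:42547623-42547625 on the minus strand, residue 606, and that of Grik5 at chr7:25022497-25022499 on the minus strand, residue 605. The matching Grid1 codon is at chr14:35450390-35450392 on the plus strand, residue 618.

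The position was found by searching each protein for the residues QQG and taking the first glutamine (Q). A glutamine there was therefore fixed by the search. Its codon is CAG in all 6 genes in the reference, and it lies 29 residues before the motif SYTANLAAF in each. In Grik1, Grik2 and Grik4, all 7, 5 and 2 complete coding transcripts that span the pore use the same codon. Grik3, Grik5 and Grid1 have 1 such transcript each. The exon layout around the codon divides the genes. In Grik1, Grik2, Grik3 and Grid1 the exon ends 4 bases after the codon, so that the printed runs cross a splice junction, whereas in Grik4 and Grik5 the exon continues for 56 bases. Of the 45 bases, Grik1 and Grik2 share 41, Grik4 and Grik5 share 31, and Grid1 shares 21 to 25 with the kainate genes. The deposited tables hold abundances and no base calls, so the share of edited mRNA was not measured. Over the proteins translated from the same transcripts, Grik2 and Grik3 were 79.4% identical, Grik1 and Grik2 78.4%, Grik1 and Grik3 72.8%, and Grik4 and Grik5 70.6%. Identity between the low-affinity and the high-affinity subunits was 42.9% to 46.1%, and between Grid1 and the kainate subunits 30.1% to 33.9%. Neto1 and Neto2 were 58.4% identical.

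All 8 genes were expressed at 1 TPM or more in both libraries, a level reached by 26.7% of all annotated genes and by 58.3% of the nuclear protein-coding genes. TPM, the abundance of transcripts scaled to a fixed sum, takes length into account, so the levels below can be compared between genes. The median of the 8 genes was 21.9 TPM in replicate 1 against 21.3 TPM in replicate 2, beside medians of 15.5 and 16.03 TPM over the protein-coding genes that reached 1 TPM. The expected counts of all 8 were whole to 2 decimals in both libraries, as were those of 84.7% of the expressed nuclear protein-coding genes. Bulk values cannot tell fewer cells of a type from less RNA per cell.

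**Figure D1:**
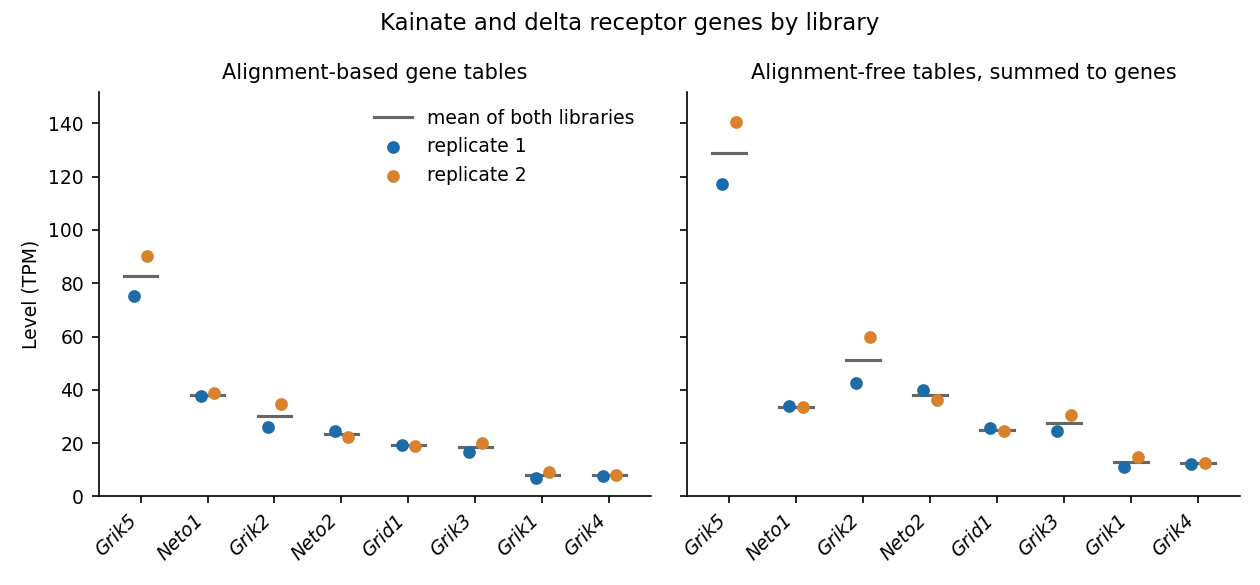
Level of each gene in TPM (linear axis) in replicate 1 (blue) and replicate 2 (orange), in the alignment-based gene tables (left) and in the alignment-free tables summed to genes (right); the bar is the mean of both libraries. Grik5 stands highest in both panels, at 82.6 TPM in the left one, while Neto1 comes second on the left and below Grik2 and Neto2 on the right.

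Among the low-affinity subunits Grik2 was the most abundant and Grik1 the least. Grik2 (ENSMUSG00000056073, chr10:49094833-49788766, minus strand) had 26.1 TPM in replicate 1 against 34.6 TPM in replicate 2 (30.3 ± 6.03, SD, n = 2), from 2217 and 1928 expected counts. As a ratio its TPM differed more between the libraries than that of any other member, while in TPM units the difference was larger for Grik5. Grik3 (ENSMUSG00000001985, chr4:125490700-125714173, plus strand) had 16.6 TPM in replicate 1 against 20.3 TPM in replicate 2 (18.4 ± 2.60), from 3315 and 3031 expected counts. Its count was above that of Grik2 and its TPM below, since its only annotated transcript is 8973 bases long, with 6082 bases after the stop codon. Grik1 (ENSMUSG00000022935, chr16:87895900-88290265, minus strand) had 7.02 TPM in replicate 1 against 9.17 TPM in replicate 2 (8.10 ± 1.52), from 516 and 479 expected counts, the fewest of the 8 genes. All 3 low-affinity genes were lower in replicate 1.

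The high-affinity pair lay at the opposite ends of the range. Grik5 (ENSMUSG00000003378, chr7:25009849-25072346, minus strand) had 75.1 TPM in replicate 1 against 90.0 TPM in replicate 2 (82.6 ± 10.6), from 5842 and 4851 expected counts, and 94.8% of nuclear protein-coding genes had a lower mean. Grik4 (ENSMUSG00000032017, chr9:42518135-42944493, minus strand) had 7.79 TPM in replicate 1 against 7.97 TPM in replicate 2 (7.88 ± 0.127), from 697 and 562 expected counts, and 58.9% of nuclear protein-coding genes had a lower mean. The lower library of Grik5 was above the higher library of every other member, and Grik4 was last by its mean.

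Grid1 (ENSMUSG00000041078, chr14:34820108-35583379, plus strand) had 19.2 TPM in replicate 1 against 19.1 TPM in replicate 2 (19.2 ± 0.0636), from 2299 and 1651 expected counts. Neto1 (ENSMUSG00000050321, chr18:86394952-86506718, plus strand) had 37.6 TPM in replicate 1 against 38.9 TPM in replicate 2 (38.2 ± 0.940), from 3611 and 2842 expected counts. Neto2 (ENSMUSG00000036902, chr8:85636588-85700924, minus strand) had 24.6 TPM in replicate 1 against 22.3 TPM in replicate 2 (23.4 ± 1.63), from 2367 and 1640 expected counts. Both auxiliary genes were thus above Grid1 in each library, and the ranges of Neto1 and Neto2 over the libraries did not overlap.

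By mean TPM the order was Grik5, Neto1, Grik2, Neto2, Grid1, Grik3, Grik1 and Grik4. The ranges of Grid1 and Grik3 overlapped over the 2 libraries, as did those of Grik1 and Grik4, so neither pair differed beyond its spread. The ranges of the other neighbours did not overlap. In the alignment-free tables Grik5 was again highest, with 117 and 141 TPM in replicates 1 and 2, and Grik1 and Grik4 were again lowest, with 11.05 and 14.8 TPM and with 12.1 and 12.7 TPM. Neto1 had 33.8 and 33.5 TPM there, below Grik2 with 42.6 and 59.9 TPM and below Neto2 with 39.8 and 36.2 TPM. Its place in the order therefore depended on the kind of table.

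TPM was lower in the alignment-based than in the alignment-free tables for most protein-coding genes, with a median ratio of 0.618, or -0.69 on the log2 scale. The ratio lay between -0.58 and -0.76 for Neto2 and the 5 kainate subunits, near that median. It was -0.39 for Grid1 and 0.18 for Neto1. None of the 8 genes was past 2-fold from the median ratio, as were 1.36% of the protein-coding genes compared.

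By TPM, Grik5 made up more than the other 4 kainate subunits together, but not on expected counts, which are not divided by length (46.4% in replicate 1 and 44.7% in replicate 2). Of the summed TPM of Grik1 to Grik5, Grik5 held 56.7% in replicate 1 and 55.6% in replicate 2. Grik2 held 19.7% and 21.3%, and Grik3 12.5% in each. Grik4 held 5.88% and 4.92%, and Grik1 5.30% and 5.66%. The order of the first 3 was the same in both libraries, while Grik4 and Grik1 changed places. The high-affinity genes Grik4 and Grik5 together held 62.5% in replicate 1 and 60.5% in replicate 2 (61.5% ± 1.44). The share was 60.8% in the alignment-free tables and 50.9% on expected counts. These are shares of RNA, not of protein or of assembled receptors.

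The transcript models behind these levels differed in how firmly they were placed. Grik3 has a single model. Of the 7 genes with several, 4 had the same leading transcript in both libraries and both kinds of table, namely Grik4, Grik5, Grid1 and Neto1, where 65.5% of expressed protein-coding genes with several transcripts did. Within the alignment-based tables alone the leading transcript by TPM was the same in both libraries for all 7, and for 88.1% of the same background. For Grik2 the lead in replicate 1 was narrow, at 5.34 against 5.33 TPM.

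Grik2 divided its RNA among several forms of the receptor, which differ in the C-terminal tail that binds intracellular partners. Forms of 908 residues (Grik2-202 and Grik2-207) held 32.3% of its TPM in replicate 1 and 25.9% in replicate 2. Forms of 869 residues (Grik2-201 and Grik2-204) held 35.3% and 22.5%. The 893-residue form held 0.653% and 0.868%. The leading single model by TPM in the alignment-based tables was none of these but Grik2-210, with 20.5% and 21.3%. It is a model of 8 exons from the gene's 5′ end that codes for 338 residues without the pore. In replicate 1 it was nearly level with Grik2-202, at 5.34 against 5.33 TPM. On expected counts, which are not divided by length, Grik2-210 held 10.8% in replicate 1 and 12.8% in replicate 2. There Grik2-207 led, with 29.3% and 26.4%. In the alignment-free tables Grik2-210 held 19.2% and 19.5%, second to Grik2-204 at 25.8% in replicate 1 and the leading model in replicate 2. The TPM share of Grik2-210 was therefore near 20% in all 4 tables, while those of the long forms varied.

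Incomplete and noncoding Grik2 models held 11.2% of TPM in replicate 1 and 29.4% in replicate 2. Of the gene's TPM, the retained-intron model Grik2-203 held 10.8% and 14.2%. The fragment Grik2-206, annotated at 539 bases, held 0% and 10.8%, from 0 and 27.8 expected counts. Coding models that contain the pore codons held 68.3% of Grik2 TPM in replicate 1 and 49.3% in replicate 2. Noncoding models were not searched for these codons. In TPM the 908-residue forms stood at 8.42 and 8.96 and the 869-residue forms at 9.19 and 7.78, so the 2 libraries lay closer together in the full-length forms than in the gene total.

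Grik1 had the fewest counts of the 8 genes, spread over 11 models. Grik1-201, of 905 residues, led in the alignment-based tables with 42.2% in replicate 1 and 46.7% in replicate 2. It held 35.0% and 17.1% in the alignment-free tables, where Grik1-202 led in replicate 2 with 23.2%. Grik1-206 held 17.1% and 0% in the alignment-based tables and 21.1% and 7.43% in the alignment-free ones. Forms with an insert of 15 residues in the extracellular part, among them Grik1-211, held 17.6% in replicate 1 and 3.82% in replicate 2, but 10.7% and 12.6% in the alignment-free tables. These shares rest on 87.2 and 18.7 expected counts, and neither their level nor a difference between the libraries was settled at this depth. Forms without the insert were the larger class throughout, with 59.3% and 53.7%, and 68.5% and 47.7% in the alignment-free tables.

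The rest of Grik1 TPM was on models annotated as retained-intron, in which an intron is kept in the transcript. They held 23.0% of Grik1 TPM in replicate 1 and 42.5% in replicate 2, and 20.8% and 39.7% in the alignment-free tables. Of these models, Grik1-204, Grik1-207 and Grik1-208 were each lower in replicate 1. Whether reads on them came from unspliced precursor RNA in the total RNA was not tested. Coding Grik1 transcripts alone had 5.41 TPM in replicate 1 against 5.27 TPM in replicate 2, closer together than the gene total.

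**Figure D2:**
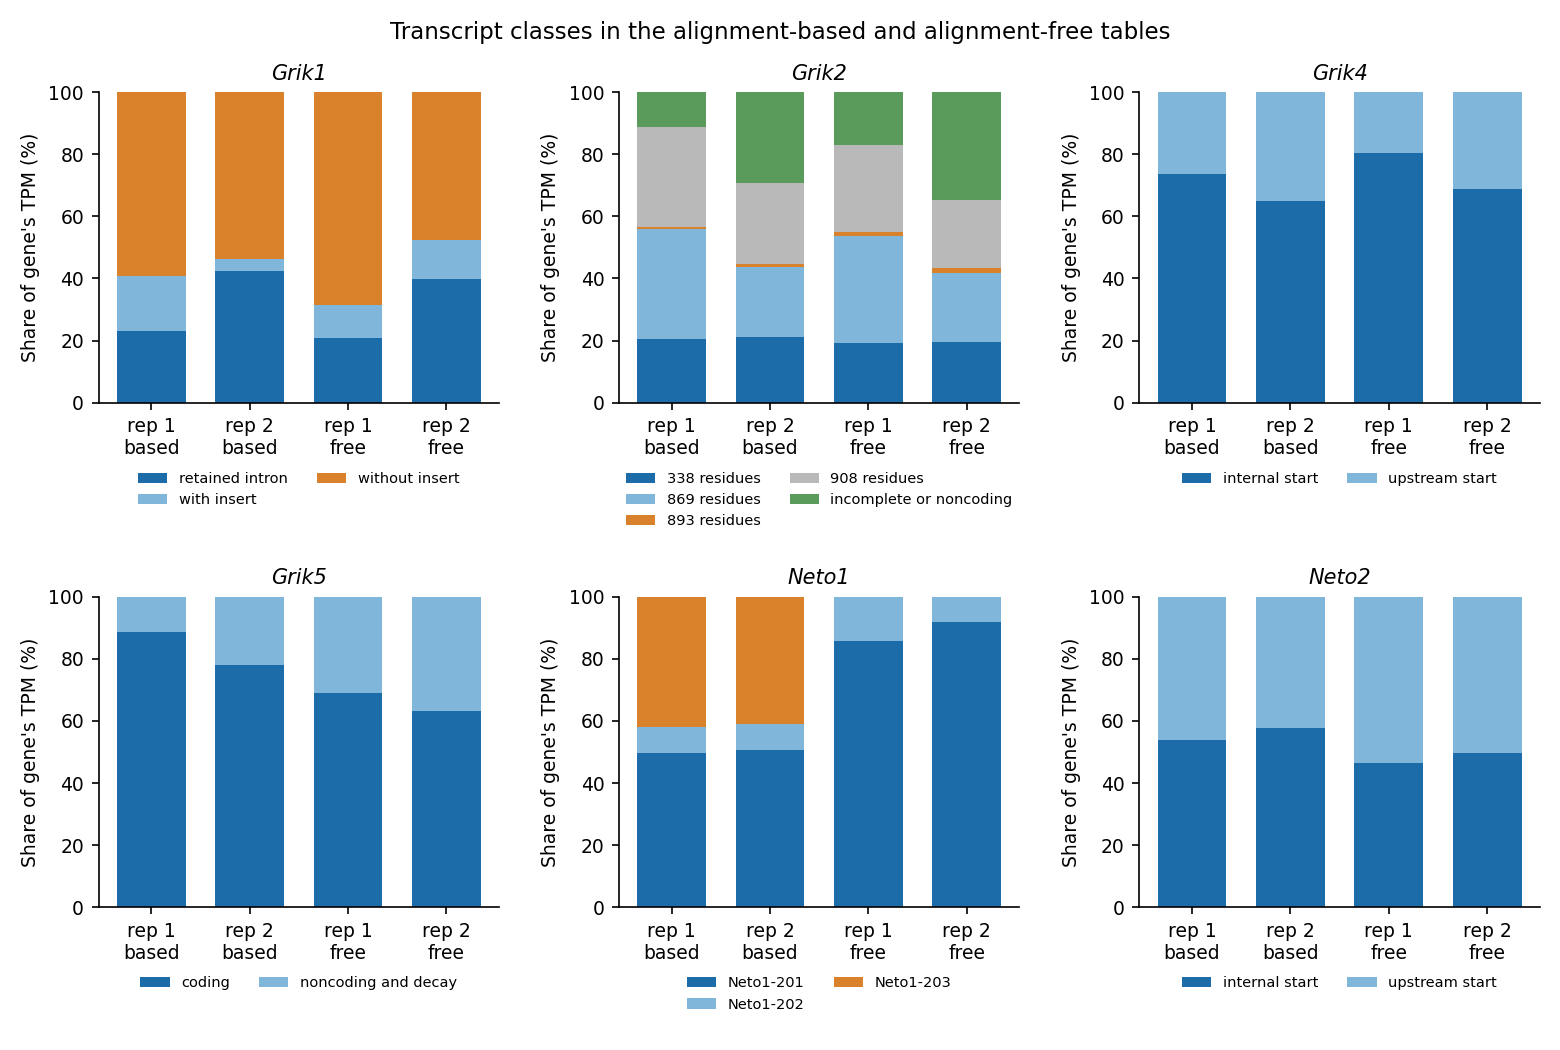
Share of each gene's TPM (percent, linear axis from 0) by transcript class for 6 genes, with replicates 1 and 2 of the alignment-based tables on the left of each panel and of the alignment-free tables on the right. Neto1-203 appears in the alignment-based bars alone (41.8% and 41.0%), and the retained-intron class of Grik1 is smaller in replicate 1 in both kinds of table.

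Grik5 was mostly its single coding transcript. Grik5-201, of 979 residues, held 88.6% of its TPM in replicate 1 and 78.0% in replicate 2, and 69.1% and 63.3% in the alignment-free tables. The other 6 models are noncoding or annotated as targets of nonsense-mediated decay, the pathway that removes mRNAs with early stop codons. They held 11.4% and 22.03%, and 30.9% and 36.7% in the alignment-free tables, where the decay model Grik5-207 had 12.9% and 11.99%. Grik5-201 itself stood at 66.5 TPM in replicate 1 against 70.2 TPM in replicate 2, still above the gene total of every other member.

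Grik4 has a pair of coding models that encode the same 956 residues from first exons 135794 bases apart. The internal start, Grik4-201, held 73.6% in replicate 1 and 65.0% in replicate 2, and 80.5% and 68.8% in the alignment-free tables. The upstream start, Grik4-202, held 26.4% and 35.0%, and 19.5% and 31.2% in the alignment-free tables. The models also differ at the 3′ end, with 417 bases after the stop codon in Grik4-201 and 2694 in Grik4-202, so that these shares reflect both ends. Grid1 was almost wholly Grid1-201, of 1009 residues, with 93.6% in replicate 1 and 90.1% in replicate 2 and with 100% in both alignment-free tables.

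Neto1 owed a large part of its alignment-based TPM to 1 short model. Neto1-201, the transcript of 8352 bases that encodes 533 residues, held 49.8% in replicate 1 and 50.6% in replicate 2, and 85.7% and 91.8% in the alignment-free tables. Neto1-203, a noncoding model of 384 bases, held 41.8% and 41.0%, but only 101 and 76.6 expected counts, which is 2.80% and 2.69% of the counts on the gene. It was at 0 in both alignment-free tables. The short incomplete coding model Neto1-202 held 8.41% and 8.41%, and 14.3% and 8.18% in the alignment-free tables. Over models of 1000 bases or more Neto1 had 18.7 and 19.7 TPM, which would place it near Grid1 and Grik3 and not second.

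By TPM, Neto2 models from starts 9951 bases apart had similar levels. Models from the internal start (Neto2-201, of 553 residues, and the noncoding Neto2-202) held 53.9% of its TPM in replicate 1 and 57.6% in replicate 2, and 46.6% and 49.5% in the alignment-free tables. Models from the upstream start (Neto2-205, of 525 residues, and Neto2-203, of 518) held 46.1% and 42.4%, and 53.4% and 50.5% in the alignment-free tables. The leading model was therefore Neto2-201 in the alignment-based tables, with 52.5% and 54.2%, and Neto2-205 in the alignment-free ones, with 51.0% and 49.3%. Neto2-201 has 3948 bases after its stop codon and Neto2-205 has 1104, so these shares, too, reflect both ends of the models. On expected counts, models from the internal start held 69.4% in replicate 1 and 72.5% in replicate 2, and those from the upstream start 30.6% and 27.5%. By TPM, neither start was minor in any of the 4 tables.

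The sequences at the Neto2 starts are shown because they differ in composition. Each is the 300-base window of the RefSeq promoter table (GRCm38.p6), with 250 bases before the start in lower case and the 50 from the start on in capitals, 5′ to 3′ on the minus strand. The internal window is chr8:85690960-85691259 and the upstream window chr8:85700875-85701174. The start marked in the internal window, base 85691009, is the first base of Neto2-202, while Neto2-201 begins at base 85690973, within the capitals. That of the upstream window is the first base of Neto2-205. The marked starts are therefore 9915 bases apart, against 9951 between Neto2-201 and Neto2-205.
Neto2 internal start: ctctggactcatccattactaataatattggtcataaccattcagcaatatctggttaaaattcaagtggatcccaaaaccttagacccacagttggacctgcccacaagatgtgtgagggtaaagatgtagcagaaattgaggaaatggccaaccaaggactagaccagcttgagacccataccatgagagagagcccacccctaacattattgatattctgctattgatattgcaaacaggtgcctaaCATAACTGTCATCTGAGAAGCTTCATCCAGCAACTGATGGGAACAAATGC
Neto2 upstream start: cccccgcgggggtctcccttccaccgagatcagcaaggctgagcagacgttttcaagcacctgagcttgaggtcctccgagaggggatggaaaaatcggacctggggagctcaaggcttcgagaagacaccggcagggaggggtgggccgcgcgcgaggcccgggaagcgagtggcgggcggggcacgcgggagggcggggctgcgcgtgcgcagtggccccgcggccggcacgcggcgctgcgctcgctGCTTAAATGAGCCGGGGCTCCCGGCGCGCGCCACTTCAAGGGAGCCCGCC
The internal window has a GC content of 42.7% and no CG dinucleotide, and 15.6% of the 32851 promoter windows in the table have a lower GC content. The upstream window has a GC content of 72.0% and 36 CG dinucleotides, which read the same on both strands. The median window has 52.7% and 7, and 94.6% of windows hold at least 1. Of the 8 genes, 5 matched the table, and the windows of Grik2, Grik3, Grik4 and Grik5 had 10 to 50 CG dinucleotides. The internal Neto2 window was the single one among the members' windows with none.

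The libraries differed little in these genes. On scaled expected counts, with replicate 1 over replicate 2, 0 of 8 genes were past 2-fold, as were 5.46% of the 18246 genes compared. The median size of the log2 ratio was 0.13 for the 8 genes and 0.13 for the 12569 genes that averaged at least 100 counts. Grik1 was lower in replicate 1, with a log2 ratio of -0.27 and a 95% counting interval of -0.45 to -0.09. Grik3 was at -0.25 (-0.32 to -0.18), Grik2 at -0.18 (-0.27 to -0.09) and Grik5 at -0.11 (-0.17 to -0.06). Neto2 and Grid1 were higher in replicate 1, at 0.15 (0.06 to 0.24) and 0.10 (0.01 to 0.19). The intervals of Neto1 at -0.03 and Grik4 at -0.07 held 0. These exact binomial intervals cover counting error only and not the variation between animals, and 1 library on each side allows no test.

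**Figure D3:**
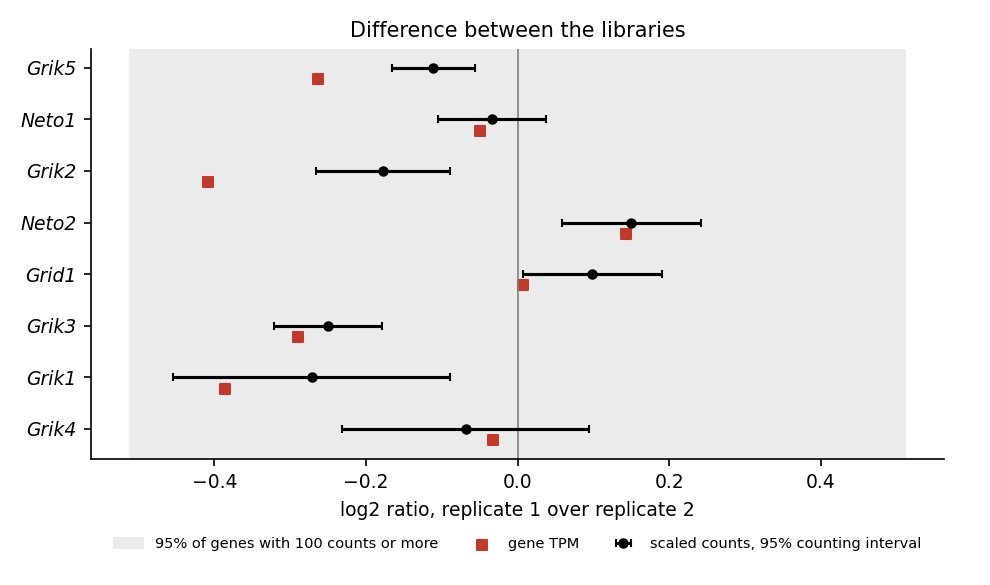
The log2 ratio of replicate 1 over replicate 2 for each gene, on scaled counts with the 95% counting interval (black) and on gene TPM (red squares); the grey band holds 95% of genes with 100 counts or more, up to 0.51 either way. Every gene lies inside the band, and for Grik2 the TPM ratio of -0.41 is farther from 0 than the count ratio of -0.18.

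For Grik1, Grik2 and Grik5 the log2 ratio was farther from 0 by at least 0.1 on gene TPM than on counts. It was -0.39 on TPM for Grik1, -0.41 for Grik2 and -0.26 for Grik5. The length used for the gene differed alongside, at 3358 bases in replicate 1 and 3195 in replicate 2 for Grik1, at 3873 and 3405 for Grik2, and at 3551 and 3293 for Grik5. In all 3 the share of retained-intron, incomplete, noncoding or decay models was larger in replicate 2. Grid1 also had the shorter length in replicate 2, at 5410 bases in replicate 1 and 5222 in replicate 2, but its TPM ratio, at 0.01, was nearer to 0 than its count ratio of 0.10. The share on models annotated as retained-intron was lower in replicate 1 well beyond these genes. Of the 7492 expressed coding genes with such a model, the share was lower in replicate 1 in 5852 (78.1%), with medians of 10.1% in replicate 1 and 14.5% in replicate 2. Its part in the members' differences was not tested.

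The kainate subunits had the lowest summed level of the 3 main ionotropic families. With 5 kainate, 4 AMPA and 7 NMDA genes, the kainate sum was 132 TPM in replicate 1 against 162 TPM in replicate 2, against 442 and 469 TPM for the AMPA receptor subunits, which carry most fast excitatory transmission, and 389 and 467 TPM for the NMDA receptor subunits. The order of the medians differed: the median kainate gene had 16.6 and 20.3 TPM, against 92.3 and 93.6 TPM for AMPA and 14.4 and 15.2 TPM for NMDA genes. The kainate sum was 30.0% and 34.6% of the AMPA sum. The Neto genes together had 62.2 and 61.2 TPM, or 14.1% and 13.0% of the AMPA sum. All 4 AMPA genes and 6 of 7 NMDA genes reached 1 TPM in both libraries, as did 58.3% of the nuclear protein-coding genes.

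Individual kainate genes overlapped the other families. Grik5, at 75.1 and 90.0 TPM, was above the lowest AMPA gene, Gria4, at 43.1 and 48.4 TPM. It was below Gria1, at 92.9 and 95.1 TPM, and Gria2, at 214 and 233 TPM, the highest of that family. Among NMDA genes the obligatory subunit Grin1 had 168 and 201 TPM and Grin2b had 97.1 and 118 TPM, both above Grik5. Grin3b was at 0.0700 and 0.130 TPM, from 3 and 5 expected counts. The lowest kainate genes, Grik1 and Grik4, were within the range of the sparser NMDA subunits.

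**Figure D4:**
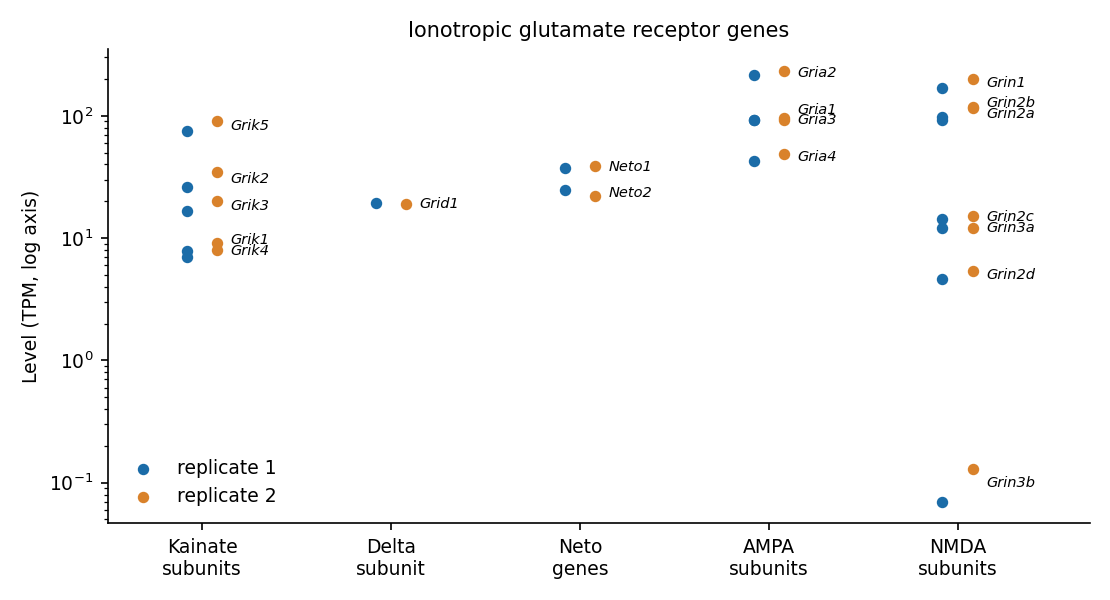
Levels in TPM (log axis) of kainate, delta and Neto genes, and of the AMPA and NMDA receptor subunits, with replicate 1 in blue and replicate 2 in orange. Grik5 lies between Gria4 and Gria1, and Grin3b is the only receptor gene shown that is below 1 TPM.

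Most of the listed genes known to bind or modify these receptors were expressed. Of 19 listed partners 18 were measured. Of these, 17 reached 1 TPM in both libraries, as did 58.3% of the nuclear protein-coding genes. The median of the 18 was 41.6 TPM in replicate 1 against 40.2 TPM in replicate 2. The highest were Dlg4, which encodes the postsynaptic scaffold PSD-95, at 312 and 342 TPM, and Nrxn2, a neurexin, at 242 and 259 TPM. Cbln3, a cerebellin known from cerebellar granule cells, was lowest at 0.100 and 0.310 TPM. Further partners were picked after their values were seen. Among the cerebellins that link GluD1 to neurexins, Cbln2 had 19.7 and 20.03 TPM, close to Grid1 itself, Cbln4 had 9.18 and 11.5 TPM, and Cbln1 had 2.95 and 4.39 TPM. The secreted C1ql3, a ligand of kainate receptors at hippocampal synapses, had 51.4 and 50.1 TPM, and the related C1ql2 had 1.56 and 1.37 TPM. Adarb1, the editing enzyme of the pore codon, had 61.4 and 62.7 TPM.

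The tissue label was checked against marker genes. The 5 excitatory cortical neuron markers reached 1 TPM in both libraries, as did 58.3% of the nuclear protein-coding genes. They summed to 1846 and 1927 TPM, while the 3 cerebellar markers summed to 0.210 and 0.310 TPM, with Gabra6 at 0. Most of the excitatory sum was Camk2a (1109 and 1188 TPM) and Slc17a7 (558 and 547 TPM). The 3 hippocampal markers summed to 151 and 139 TPM. Most of that sum was Dkk3 (89.4 and 77.4 TPM) and Wfs1 (58.5 and 59.2 TPM), with Prox1 at 3.61 and 2.85 TPM. Whether the markers are specific to their region was not tested, so the sums do not measure how much of each region was present. Replicate 1 had the higher sums for interneuron markers (282 against 238 TPM), oligodendrocyte markers (452 against 391 TPM), microglial markers (55.1 against 50.5 TPM) and endothelial markers (37.2 against 29.8 TPM). It had the lower sums for astrocyte markers (748 against 790 TPM) and precursor markers (18.3 against 19.9 TPM). In TPM, single genes went against their list: Csf1r (microglia, 26.5 against 28.95 TPM) and Flt1 (endothelium, 15.1 against 15.6 TPM) were lower in replicate 1, and Aqp4 (astrocytes, 30.1 against 29.4 TPM) was higher. On scaled counts Csf1r and Flt1 were instead higher in replicate 1, with log2 ratios of 0.25 and 0.10. Aqp4 was higher there too, at 0.06. The part of these shifts in the members' differences was not tested.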

How the data were processed

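The authors deposited 3 tables for each library, 1 by gene and 2 by transcript. They refer to mm10 and GENCODE M21, per the accompanying deposited text. By that text, the gene table and 1 transcript table start from a transcriptome alignment and the other, called alignment-free, from the reads and an index. Names of the aligner and the quantifiers were not given in the sources used here. The deposited values are, per the file headers, expected counts and TPM with posterior mean TPM and intervals, whose level is not stated, and, in the alignment-free tables, estimated counts and TPM. The deposited expected counts are not normalized; the deposited TPM is scaled by length and to the same sum in each library.

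Total depth was 32504959 and 24899781 expected counts in replicates 1 and 2, of which 32357983 and 24798683 were on genes. The limit that a count of 0 allows, 3 counts, is 0.0927 CPM in replicate 1 and 0.121 CPM in replicate 2. Intervals and floors cover counting error only, as no molecular identifiers are given. Reads were placed on the C57BL/6J reference, and the effect of CAST/EiJ variants was not analysed here.

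Isoform shares were computed from TPM. Expected counts were rounded, genes with a mean of 10 or more kept, scaled with TMM (edgeR 4.0.16) and compared as log2 CPM with a prior count of 2; DESeq2 1.42.0 size factors were an alternative. The exact binomial intervals are Clopper-Pearson at 95%. The TMM-scaled log2 ratio was tested on simulated counts, with known changes larger than the ratios seen in the members. The intervals, the DESeq2 alternative and the isoform shares were not tested in this way. Proteins were translated from GENCODE transcripts and aligned with Biopython 1.88 (BLOSUM62); identity is over aligned residues. In 6 of the genes lie 16 other annotated genes, 9 of them with counts, at most 92.9, and whether reads of these were counted on a member was not tested.

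The members, lists and rules were chosen with earlier results of these data known. Named in the text were all members, of each receptor or partner list the 2 highest, the lowest and those under 1 TPM, and each member's leading transcripts and those at 10% or more in any table. The partner Klhl17 was not analysed here. Receptor and partner lists were described by counts, medians and sums, and marker lists by sums and single genes. Alternatives covered the kind of table, posterior mean TPM, rescaling, thresholds, scaling, the prior count, filters, transcript classes and leaving out each library. Limiting member levels to coding transcripts, and levels and the high-affinity share to transcripts of 1000 bases or more, was added after seeing the data.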

Additional observations from a re-analysis of the deposited data

How the results depend on the processing

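The count of members at 1 TPM in both libraries stayed 8 at thresholds of 0.5 and 5 TPM and in the alignment-free tables, and was 6 at 10 TPM. The share of Grik4 and Grik5 in the kainate subunits, 61.5%, was 50.9% on expected counts and 59.7% over transcripts of 1000 bases or more, an alternative added after seeing the data, and ranged from 60.5% to 62.5% with either library left out. The number of genes with 1 leading transcript throughout, 4 of 7 over 4 tables, was 7 in the alignment-based tables alone and 5 in the alignment-free tables alone, and 5 without either library. No member passed 2-fold between the libraries under any scaling, prior count or filter tried or with alignment-free counts. Neto1 fell to 19.2 TPM over transcripts of 1000 bases or more, against 38.2 TPM over all its transcripts; the lost TPM is that of its short models. Rescaling TPM to nuclear protein-coding genes raised all 8 levels together, to 187 TPM for Grik5. No paired analysis was possible because there is 1 group. Grik1 had the fewest counts behind its isoform shares, 516 in replicate 1 and 479 in replicate 2.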
